A study of Mus musculus with 8 samples.

Results

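The genes described here are 8 genes of fatty acid synthesis in the liver: Fasn, Scd1, Acly, Me1, Elovl6, Thrsp, Srebf1 and Gpam. They were chosen by name, with earlier results of these data known. Every probe set that the array annotation assigns to 1 of them alone was taken. This gave 11 probe sets of 8 genes, among 12422 probe sets tested that cover 8251 genes. Scd1 had 3 probe sets, Elovl6 had 2 and each other gene had 1. All 11 probe sets were measured on every array and no filter on low values was applied.

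RNA from mouse livers was hybridised to 8 Affymetrix arrays of the MG-U74Av2 design, 2 in each of 4 groups. The groups were AP20187-treated Atf4-/-, AP20187-treated Atf4+/+, untreated Atf4-/- and untreated Atf4+/+ livers; the series title calls the untreated mice mock-injected. Every mouse, untreated ones included, carried the low-expressing Ttr::Fv2E-Perk transgene, in a mixed FvB/n; Swiss Webster background, and the Atf4+/+ and Atf4-/- animals were siblings positive for it. In this transgene the Ttr promoter, which is active in hepatocytes, drives a chimera whose kinase domain is that of PERK, and AP20187 is a small molecule that joins such chimeras in pairs. The transgene is thus an artificial switch for eIF2alpha phosphorylation in hepatocytes, not the endogenous response to misfolded protein. Age, sex, dose and time after injection are not given in the labels used here, nor whether the replicates of a group are different animals, so the p-values may measure technical spread only.

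Hepatocytes make fatty acids from citrate. ATP citrate lyase (Acly) cleaves exported citrate to acetyl-CoA, malic enzyme (Me1) supplies NADPH, and fatty acid synthase (Fasn) assembles palmitate, which Elovl6 elongates and Scd1 desaturates before glycerol-3-phosphate acyltransferase (Gpam) starts to build it into triglyceride. The transcription factor SREBP-1, encoded by Srebf1, is known to raise these genes after feeding and insulin, and Thrsp (Spot 14) is a nuclear protein that is induced with them. PERK phosphorylates eIF2alpha, which lowers general translation and raises translation of a few proteins such as ATF4, a transcription factor of amino acid and stress genes.

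Promoter sequence was available for 7 of the 8 genes, in 11 windows from RefSeq on GRCm38.p6, each of the 250 bases before an annotated start; Scd1 is not in that table. The windows of Thrsp and Acly are shown because these were the genes with no overlap between all treated and all untreated arrays. Both windows lie on the minus strand just outside the annotated gene, Thrsp at chr7:97417551-97417800 and Acly at chr11:100528001-100528250. Capitals mark CCAAT boxes and GC boxes (letters CCAAT and GGGCGG, searched on both strands).
Thrsp: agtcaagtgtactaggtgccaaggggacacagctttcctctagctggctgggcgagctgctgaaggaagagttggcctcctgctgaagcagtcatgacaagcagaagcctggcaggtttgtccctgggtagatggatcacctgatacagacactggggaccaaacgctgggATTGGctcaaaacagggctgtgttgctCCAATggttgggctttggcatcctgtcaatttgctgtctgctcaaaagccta
Acly: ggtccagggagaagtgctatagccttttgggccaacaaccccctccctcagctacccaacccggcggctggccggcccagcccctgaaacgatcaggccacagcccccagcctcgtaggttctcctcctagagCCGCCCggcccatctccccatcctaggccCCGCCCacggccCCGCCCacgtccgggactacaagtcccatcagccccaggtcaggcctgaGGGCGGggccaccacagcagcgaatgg
Thrsp held CCAAT boxes at positions -79 to -75 and -52 to -48, counted back from the base before the start, and Acly held 4 GC boxes. Across the members, 5 of 7 genes held a CCAAT box, against 33.8% of 32851 windows of this length, and 4 of 7 held a GC box, against 32.7%. Some genes have several windows, which raises a count over genes; by windows, 6 of 11 held a CCAAT box and 5 of 11 a GC box. A CCAAT box and a GC box are too common for a match to mark a site, and each match is a description of letters only.

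Rarer motifs are shown as stretches of 30 bases, with the match in capitals. The direct repeat bound by LXR, the oxysterol receptor that is known to raise Srebf1, (GGTTACTNNNGGTCA) was present in 6 of the 32851 windows (0.0183%), and a pair of those windows belonged to Srebf1, at chr11:60210631-60210660, and Fasn, at chr11:120824750-120824779. The C/EBP-ATF response element, which ATF4 can bind with a partner (TGATGNAA), was present in 3.45% of windows and in 1 member, Gpam, at chr19:55127242-55127271. All 3 stretches are on the minus strand and lie inside the annotated gene, upstream of an internal start.
Srebf1: acgacagTGACCGCCAGTAACCccagcgcg
Fasn: gccacgaTGACCGGTAGTAACCccgcctga
Gpam: tggttattattTGATGAAAgagccttcctc
The letters TCACNCCAC of the sterol regulatory element and the E-box CACGTG, present in 1.05% and 6.02% of windows, were found in none of the 7 members within 250 bases. The LXR spelling comes from general knowledge of lipogenic promoters, so its presence in Srebf1 and Fasn is not independent of how it was chosen.

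The deposited values are linear ratios, for most probe sets to that probe set's own median over the 8 arrays, so a value of 1 is the middle of a probe set's own range and levels of different genes cannot be compared. Differences are given on the log2(ratio + 0.1) scale with their SE, and understate changes of low ratios. A limma model of 4 group means over all 8 arrays gave p-values, adjusted by Benjamini and Hochberg over 12422 probe sets, with 0.05 as the threshold. In whole liver, fewer cells of a type and less RNA per cell cannot be told apart.

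The labels were first set against Atf4 itself (100599_at). Its ratios were 0.25 and 0.33 in AP20187-treated Atf4-/- livers, against 4.17 and 5.75 in AP20187-treated Atf4+/+ livers. In untreated livers they were 0.29 and 1.67 under the label Atf4-/-, against 2.36 and 0.30 under Atf4+/+. The second untreated array of each genotype thus stood against its label, and the first untreated Atf4-/- array carries Atf4+/+ in its description. Untreated arrays are therefore called by their label, and the comparison over both genotypes, which averages the 4 arrays of each treatment with equal weight, is placed first. Eif2ak3 (103537_at), the endogenous PERK gene, had 0.98, 1.01, 0.99 and 1.37 in treated livers, against 1.45, 0.61, 0.85 and 1.09 in untreated livers; whether its probes lie in the part used for the transgene is not given here.

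Over both genotypes, 10 of the 11 lipogenic probe sets had lower mean values with AP20187, from -1.37 (Thrsp) to -0.45 (Scd1 94056_at), and Me1 was the exception at 0.21. Their median was -0.70, against -0.04 over all probe sets, of which 55.0% were below 0. The 11 do not count as separate observations. Scd1 gave 3 of them and Elovl6 2, and most varied together from array to array. No lipogenic probe set passed the adjusted test, and 5 of 12422 probe sets did (0.0403%). At an unadjusted p under 0.05, 3 of the 11, those of Fasn, Acly and Thrsp, were lower, against 5.15% of all probe sets that were lower at this level. All 4 treated arrays lay below all 4 untreated arrays for 2 of the 11, Acly and Thrsp, against 3.78% of all probe sets with such an order, and none of the 11 showed the opposite order, found in 4.19%. Leaving out the second untreated array of each genotype kept 10 of 11 below 0, with a median of -0.54. The median came to -0.39 without the second untreated Atf4-/- array and to -0.46 without the second treated Atf4+/+ array. With each array left out in turn, Thrsp lay between -1.62 and -1.13, Acly between -0.85 and -0.61 and Fasn between -1.65 and -0.97.

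**Figure D1:**
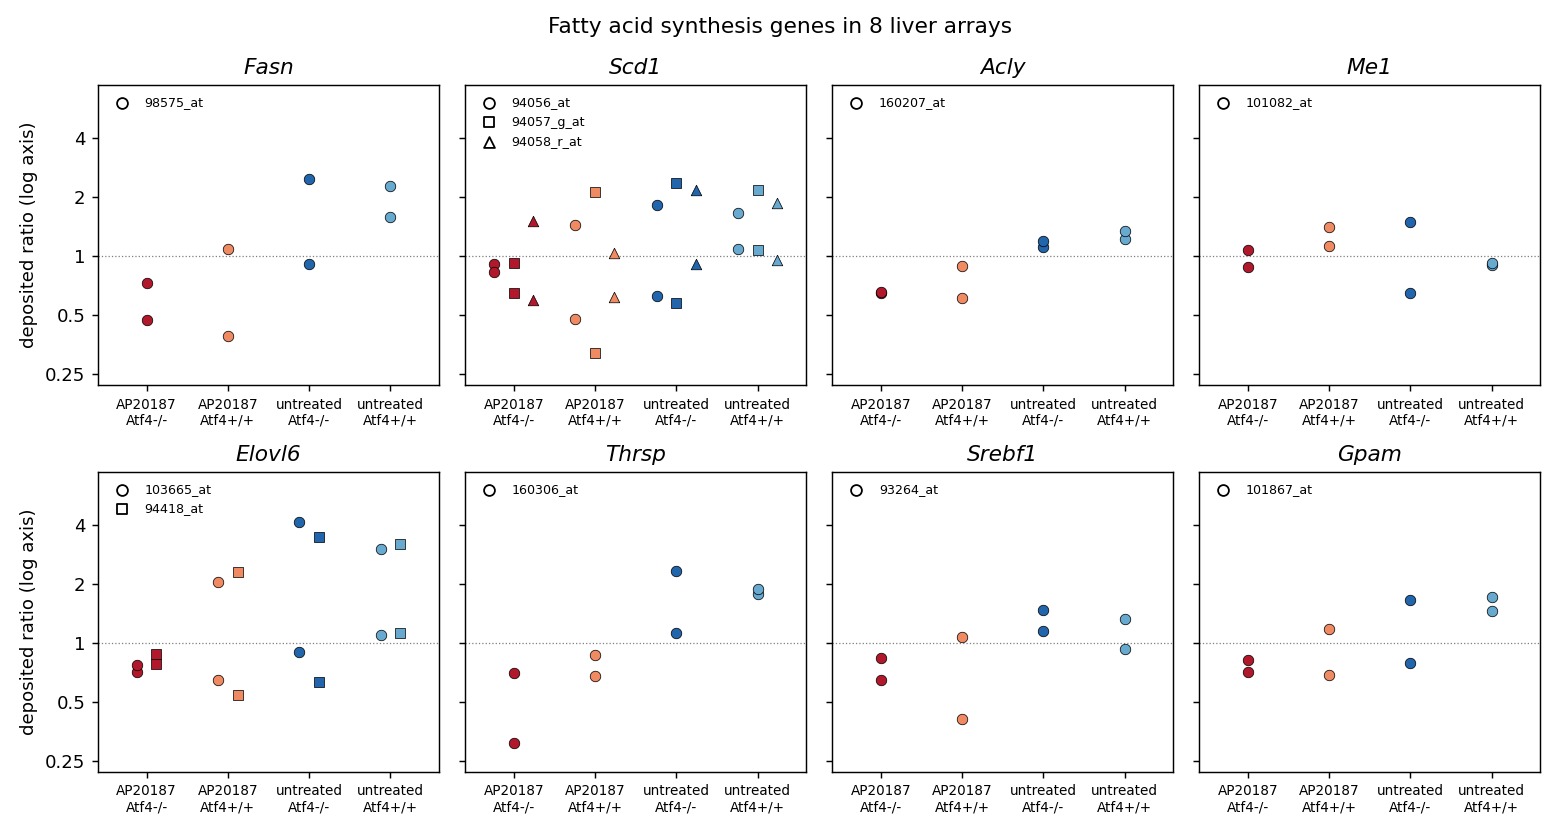
Ratios of the 11 probe sets of 8 fatty acid synthesis genes in 8 liver arrays, 1 panel per gene, on a log axis. Each point is 1 array, colours are the 4 groups, symbols are probe sets of the same gene, and the dotted line is a ratio of 1. In the Thrsp panel the treated arrays lie between 0.31 and 0.87, all below the untreated arrays at 1.13 to 2.34; in the Elovl6 and Scd1 panels arrays of 1 group lie far apart.

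Among the regulators, Thrsp (160306_at, chr7:97412933-97417550) had the largest difference of the 11. Its ratios were 0.31 and 0.70 in treated Atf4-/- livers, 0.87 and 0.68 in treated Atf4+/+ livers, 1.13 and 2.34 in untreated livers labelled Atf4-/-, and 1.78 and 1.89 in those labelled Atf4+/+. Every treated array was thus below every untreated array, and the lowest of all was the first treated Atf4-/- array. The mean ratio was 0.64 ± 0.236 with AP20187, against 1.79 ± 0.499 without (SD, n = 4 each), a log2 difference of -1.37 ± 0.31 (adjusted p = 0.246 in limma).

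Srebf1 (93264_at, chr11:60199084-60224186) gave ratios of 0.65 and 0.84 in treated Atf4-/- livers, 1.07 and 0.41 in treated Atf4+/+ livers, 1.15 and 1.47 in untreated livers labelled Atf4-/-, and 1.33 and 0.93 in those labelled Atf4+/+. The treatments overlapped through a single pair of arrays, the first treated Atf4+/+ array at 1.07 and the second untreated Atf4+/+ array at 0.93. The mean ratio was 0.743 ± 0.28 with AP20187, against 1.22 ± 0.234 without, and the log2 difference was -0.70 ± 0.30 (adjusted p = 0.460 in limma). The array measures the RNA of Srebf1 and says nothing of the cleavage that activates its protein, and with 1 probe set the promoters of its isoforms were not separated.

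Among the enzymes that supply the pathway, Acly (160207_at, chr11:100476352-100528000) was lower in every treated array. Its ratios were 0.65 and 0.66 in treated Atf4-/- livers, 0.89 and 0.61 in treated Atf4+/+ livers, 1.11 and 1.2 in untreated livers labelled Atf4-/-, and 1.23 and 1.35 in those labelled Atf4+/+. No treated array reached the lowest untreated one. The mean ratio was 0.703 ± 0.127 with AP20187, against 1.22 ± 0.0991 without, a log2 difference of -0.73 ± 0.17 (adjusted p = 0.248 in limma).

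Me1 (101082_at, chr9:86581363-86695914) did not share this order. It had 0.88 and 1.08 in treated Atf4-/- livers, 1.41 and 1.13 in treated Atf4+/+ livers, 0.65 and 1.49 in untreated livers labelled Atf4-/-, and 0.90 and 0.92 in those labelled Atf4+/+. Both the lowest and the highest of its 8 values were untreated arrays labelled Atf4-/-. The mean ratio was 1.13 ± 0.219 with AP20187, against 0.99 ± 0.355 without, a log2 difference of 0.21 ± 0.26 with an adjusted p of 0.792. Its value was -0.07 without the first untreated Atf4-/- array, so its direction rests on that array.

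Fasn (98575_at, chr11:120805958-120825166), which makes palmitate, had 0.47 and 0.73 in treated Atf4-/- livers, 1.09 and 0.39 in treated Atf4+/+ livers, 0.91 and 2.49 in untreated livers labelled Atf4-/-, and 2.29 and 1.58 in those labelled Atf4+/+. The first treated Atf4+/+ array exceeded the first untreated Atf4-/- array, and no other treated array reached an untreated one. The mean ratio was 0.67 ± 0.315 with AP20187, against 1.82 ± 0.72 without, a log2 difference of -1.31 ± 0.42 (adjusted p = 0.372 in limma).

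The enzymes that modify palmitate varied most between arrays of 1 group. Elovl6 (chr3:129532386-129638495), measured by 103665_at, had 0.71 and 0.77 in treated Atf4-/- livers, 2.04 and 0.65 in treated Atf4+/+ livers, 0.90 and 4.14 in untreated livers labelled Atf4-/-, and 3.01 and 1.10 in those labelled Atf4+/+. Its second probe set, 94418_at, gave 0.78 and 0.88, 2.31 and 0.54, 0.63 and 3.46, and 3.22 and 1.12 in the same order of groups. In both probe sets the treated Atf4-/- arrays lay close together, while 1 array of each other group was at least 2.04 and the other was at most 1.12. The log2 differences over both genotypes were -0.95 ± 0.59 and -0.75 ± 0.67 (adjusted p = 0.577 and 0.699).

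Scd1 (chr19:44394450-44407709) had 1 order of arrays in 2 of its 3 probe sets and a different one in the last. With 94056_at it had 0.91 and 0.83 in treated Atf4-/- livers, 1.44 and 0.48 in treated Atf4+/+ livers, 0.63 and 1.82 in untreated livers labelled Atf4-/-, and 1.66 and 1.09 in those labelled Atf4+/+. With 94057_g_at, made from the same sequence record, the values in the same order were 0.92 and 0.65, 2.13 and 0.32, 0.58 and 2.36, and 2.18 and 1.08. The third, 94058_r_at, gave 1.52 and 0.60, 0.62 and 1.04, 0.91 and 2.19, and 0.96 and 1.88. All 3 were lower with AP20187 by amounts not far above their SE, at -0.45 ± 0.43, -0.66 ± 0.65 and -0.60 ± 0.42 (adjusted p = 0.715, 0.719 and 0.624).

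Gpam (101867_at, chr19:55067635-55127319), which adds the first acyl chain to glycerol-3-phosphate, had 0.71 and 0.82 in treated Atf4-/- livers, 1.18 and 0.69 in treated Atf4+/+ livers, 0.79 and 1.65 in untreated livers labelled Atf4-/-, and 1.71 and 1.46 in those labelled Atf4+/+. The first untreated Atf4-/- array lay among the treated ones. The mean ratio was 0.85 ± 0.227 with AP20187, against 1.40 ± 0.422 without, a log2 difference of -0.64 ± 0.28 (adjusted p = 0.460 in limma).

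The same direction was present in each genotype taken by its label. In Atf4-/- livers all 11 probe sets were below 0, with a median of -0.73, against -0.02 over all probe sets. None passed the adjusted test, as was the case for every one of the 12422 probe sets in this comparison (0% called; 922 had an unadjusted p under 0.05). Thrsp at -1.60 ± 0.44 and Acly at -0.73 ± 0.24 were the 2 of 11 that were lower at an unadjusted p under 0.05, a level at which 3.16% of all probe sets were lower. In 5 of the 11 both treated arrays lay below both untreated arrays, against 22.3% of all probe sets, and in none above both, against 20.1%. The median rests on 1 untreated array, the second labelled Atf4-/-, whose Atf4 ratio of 1.67 stood against its label. Without that array the median was -0.04, with 6 probe sets below 0 and 5 above. Thrsp lay between -2.09 and -1.10, Acly between -0.78 and -0.68 and Fasn between -1.91 and -0.55 with each array left out in turn.

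In Atf4+/+ livers 10 of 11 were below 0, with a median of -0.70, against -0.06 over all probe sets. Me1 was the exception at 0.43 ± 0.37. None of the 11 passed the adjusted test, and 1 of 12422 probe sets did (0.00805%). Acly at -0.73 ± 0.24 and Thrsp at -1.15 ± 0.44 were lower at an unadjusted p under 0.05, 2 of 11, against 4.31% of all probe sets; Fasn at -1.39 ± 0.59 (adjusted p = 0.563 in limma) was not. In 4 of the 11 the treated arrays lay below both untreated arrays and in 1, Me1, above both, against 21.3% and 16.7% of all probe sets. Without the second treated Atf4+/+ array the median was -0.05, with 6 below 0 and 5 above; this array was the lowest of the 8 for Fasn, Acly, Srebf1, Gpam, both Elovl6 probe sets and the first 2 Scd1 probe sets. Thrsp lay between -1.31 and -1.0 here, Acly between -0.97 and -0.49 and Fasn between -2.03 and -0.75 with each array left out in turn. The second treated Atf4+/+ array also had the lowest deposited value of the 5' over the 3' Actb control probe sets. It was -0.64 on the log2 scale, against -0.19 to 0.14 in the other 7 arrays. The same value for Gapdh was -0.06, against -0.05 to 0.13. The deposited values are mostly ratios to a probe set's own median. These numbers therefore compare arrays with each other and do not show how intact the RNA was. The part of this array's RNA in the result was not tested.

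**Figure D2:**
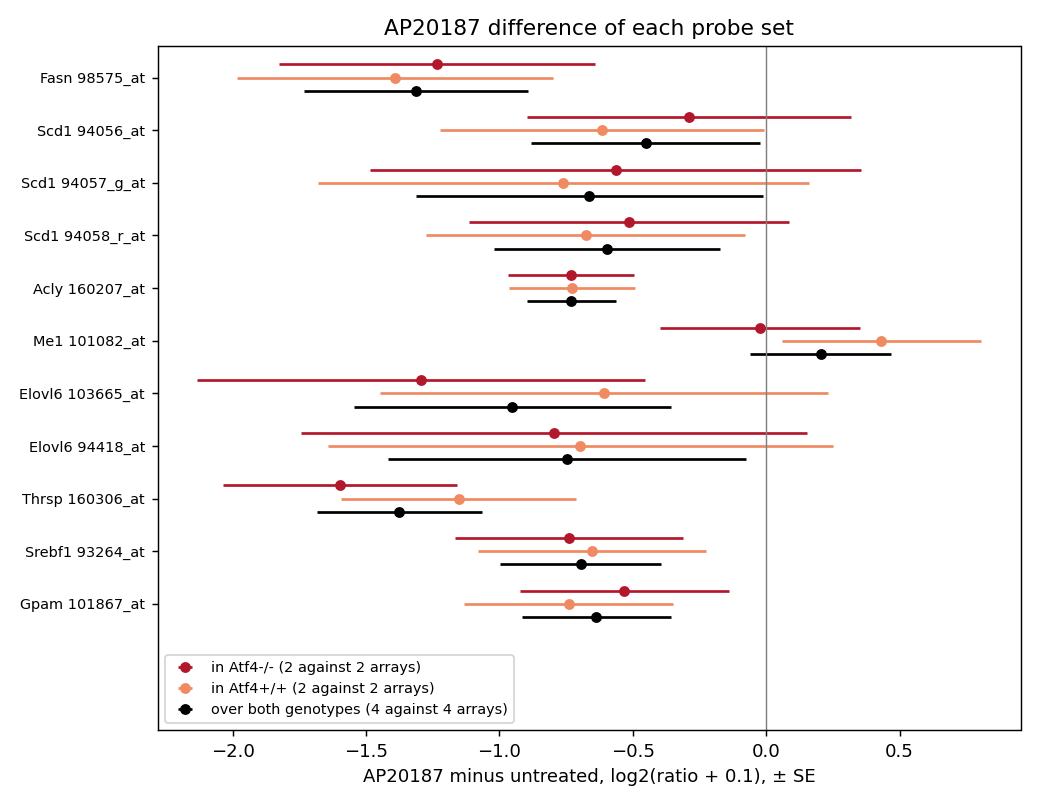
AP20187 minus untreated on the log2(ratio + 0.1) scale for the 11 probe sets, in Atf4-/- livers, in Atf4+/+ livers and over both genotypes. Points are limma estimates and bars are ± 1 SE. Thrsp, Fasn and Acly lie below 0 by more than 2 SE in each of the 3 estimates, and Me1 lies above 0 in 2 of them.

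No difference of these genes by Atf4 genotype passed the test. With AP20187, Atf4-/- minus Atf4+/+ was below 0 for 8 of 11 probe sets and above for 3, with a median of -0.15 and a range of -0.60 (Thrsp) to 0.23 (Scd1 94058_r_at). The adjusted p-values were 0.956 to 0.998, and 0% of all probe sets were called, with 659 at an unadjusted p under 0.05. At that level 0 of the 11 were lower, against 2.78% of all probe sets. In 1 of 11, Me1, both Atf4-/- arrays lay below both Atf4+/+ arrays, against 15.3% of all probe sets, and in 0 of 11 above, against 19.2%. These treated arrays follow their labels by Atf4. The SE of this difference was 0.24 for Acly and 0.95 for Elovl6 94418_at, so for Fasn, Elovl6 and Scd1 a difference of 1 log2 unit lay within 2 SE. Under the labels, untreated livers gave a median of -0.16 (7 below 0, 4 above), and the difference of the AP20187 effects between genotypes gave a median within 0.01 of 0, with adjusted p-values of 0.945 to 0.999. In these comparisons limma called no probe set of the table, and 661 and 678 had an unadjusted p under 0.05. None of the 11 was lower at that level in either, against 2.56% and 2.73% of all probe sets. In untreated livers 1 of 11, Acly, had both arrays labelled Atf4-/- below both labelled Atf4+/+, against 16.4% of all probe sets, and none had the opposite order, found in 15.5%. Both comparisons depend on the 2 untreated arrays that stand against their labels, and the second had all 11 probe sets below 0 without the first untreated Atf4-/- array and all 11 above 0 without the second.

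Most of the probe sets varied together from array to array. Over the 8 arrays the 36 pairs among 9 probe sets, leaving out Me1 and Scd1 94058_r_at after their values were seen, had Pearson correlations of 0.531 to 0.987 with a median of 0.845. The highest was between the 2 Scd1 probe sets of the same record. Me1 correlated with the other 10 at -0.127 to 0.537 (median 0.272), and 94058_r_at at 0.0486 to 0.412 (median 0.252). These are descriptions: the arrays share their groups, and all probe sets of an array share its RNA and scaling. Averaged over the 8 genes on the log2 scale, the arrays stood at -0.41 and -0.18 in treated Atf4-/- livers, 0.37 and -0.51 in treated Atf4+/+ livers, -0.03 and 1.03 in untreated livers labelled Atf4-/-, and 0.79 and 0.47 in those labelled Atf4+/+. The first treated Atf4+/+ array was therefore above the first untreated Atf4-/- array, and the spread within the Atf4+/+ treated pair and the Atf4-/- untreated pair was wider than the difference between the treatment means.

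**Figure D3:**
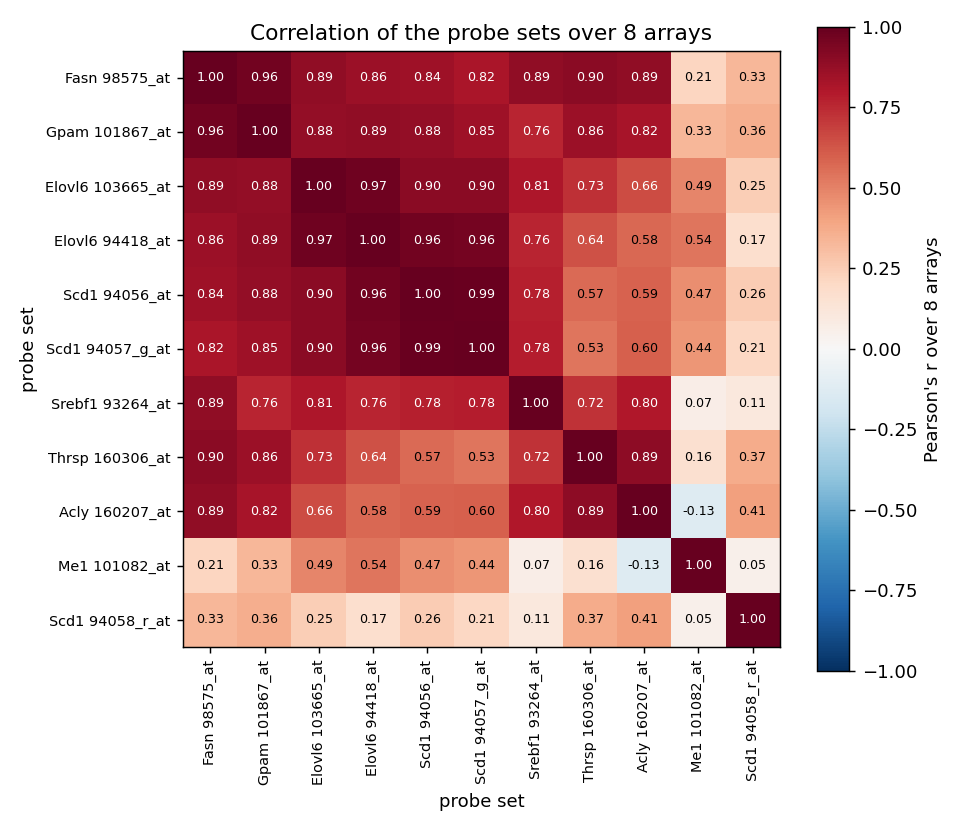
Pearson correlation of the log2(ratio + 0.1) values over 8 arrays for each pair of the 11 probe sets; colour and number give r. Rows and columns are ordered by median r. The pairs among the first 9, set apart after their values were seen, lie at 0.53 to 0.99. Me1 and Scd1 94058_r_at come last, with lower medians, and the highest r of Me1 is 0.54.

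Outside the 8 genes, the genes whose log2 values correlated most with this average over the 8 arrays were Slc2a2 (r = 0.949), Lalba (0.948), Pias3 (0.947), Aqp8 (0.941) and Txnrd2 (0.939), the 5 highest among genes with a name of their own. Slc2a2 (103357_at) encodes the glucose transporter GLUT2 of hepatocytes and had 0.67 and 1 in treated Atf4-/- livers, 1.21 and 0.56 in treated Atf4+/+ livers, 0.87 and 2.15 in untreated livers labelled Atf4-/-, and 1.68 and 1 in those labelled Atf4+/+. Aqp8 (102200_at), a water channel, had 0.45 and 0.97, 1.15 and 0.56, 0.95 and 2.13, and 1.78 and 1.03 in the same order. Over the 8 arrays Lalba ranged from 0.58 to 1.35 and Pias3 from 0.53 to 1.65. Txnrd2 varied little, from 0.89 to 1.2, so a high r here does not mean a large change. All 5 had their highest value in the second untreated Atf4-/- array, which stood against its label by its Atf4 ratio. So did every probe set of Fasn, Scd1, Me1, Elovl6, Thrsp and Srebf1, but not those of Acly and Gpam. A search of this size over 8 arrays finds high correlations in any case, and the values describe likeness only.

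The neighbouring parts of lipid metabolism were read from lists of genes, over both genotypes. Of other enzymes of fatty acid synthesis, 7 of 12 listed genes were measured by 8 probe sets, and all 8 were below 0 with a median of -0.39; 2 were lower at an unadjusted p under 0.05, against 5.15% of all probe sets, and none passed the adjusted test. By label, 6 of 8 were below 0 in Atf4-/- livers (median -0.40) and 7 of 8 in Atf4+/+ livers (median -0.49). Scd2 (95758_at), a second stearoyl-CoA desaturase, was at -0.54 ± 0.20, with its other probe set at -0.28. Elovl1, an elongase of very long chains, was at -0.51 ± 0.21, and the desaturase Fads1 at -0.56 ± 0.27. For genes that supply acetyl-CoA and NADPH, 9 of 13 were measured by 12 probe sets, 11 of which were below 0 (median -0.34). In Atf4-/- livers 11 of 12 were below 0 (median -0.38), and in Atf4+/+ livers 7 of 12 (median -0.23). The mitochondrial citrate carrier Slc25a1 was at -0.53 ± 0.27 and -0.30, and cytosolic Idh1 at -0.42 ± 0.21. Citrate synthase, Cs, was the exception at 0.46 ± 0.15, with treated ratios of 0.99 to 1.57, against 0.75 to 1.01 in untreated livers. With arrays left out, the medians of these 2 lists lay between -0.59 and -0.29 and between -0.42 and -0.21.

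As a list, triglyceride assembly did not share the lower values, although the member Gpam, which starts it, was at -0.64. Of its 12 listed genes 9 were measured by 12 probe sets, 7 above 0 and 5 below, with a median of 0.30. By label, 9 were above 0 in Atf4-/- livers (median 0.51) and 6 in Atf4+/+ livers (median -0.01). Plin2, the lipid droplet coat protein, had 1.51, 1.01, 1.47 and 2.27 in treated livers, against 0.72, 0.96, 1 and 0.63 in untreated livers, with no overlap (0.81 ± 0.25, adjusted p = 0.354 in limma). The phosphatidate phosphatase Lpin2 was at 0.55 ± 0.20 with 161165_f_at and -0.22 with 96806_at, and glycerol-3-phosphate dehydrogenase Gpd1 at 0.87 ± 0.36 with 161753_f_at and -0.04 with 92592_at, so their probe sets disagreed. The median of the list was 0.12 without the first untreated Atf4+/+ array and 0.21 to 0.37 without other arrays.

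Regulators of lipogenesis other than Srebf1 and Thrsp were measured for 13 of 22 genes by 16 probe sets, 8 above and 8 below 0 over both genotypes, with a median of -0.01. By label, 6 of 16 were below 0 in Atf4-/- livers (median 0.08) and 14 of 16 in Atf4+/+ livers (median -0.25). Of all probe sets, 51.9% and 54.9% were below 0 in these comparisons. Each side of this split, as of the other lists split by label, includes an untreated array that stood against its label. None of the 16 probe sets passed the adjusted test in either genotype or for the difference between them. The lowest was Irs2, an adaptor of the insulin receptor, with 0.50 and 1.05 in treated Atf4-/- livers, 0.61 and 0.53 in treated Atf4+/+ livers, 2.40 and 2.24 in untreated livers labelled Atf4-/-, and 1.54 and 0.95 in those labelled Atf4+/+. A single treated array exceeded the lowest untreated one, and the difference was -1.26 ± 0.26 (adjusted p = 0.224 in limma). Irs1, the other main hepatic adaptor, was at -0.75 ± 0.36, and Mid1ip1, the paralogue of Thrsp, at -0.43 ± 0.19 and -0.41.

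Sterol synthesis, which SREBP proteins also control, was lower in 17 of 19 probe sets of 13 measured genes of 17, with a median of -0.74; 7 were lower at an unadjusted p under 0.05, against 5.15% of all probe sets, and none passed the adjusted test. By label, 13 of 19 were below 0 in Atf4-/- livers (median -0.23), none at an unadjusted p under 0.05, and 18 of 19 in Atf4+/+ livers (median -1.28), 9 of them at that level, against 3.16% and 4.31% of all probe sets. The difference between the genotypes passed the adjusted test for none of the 19. The Atf4+/+ side of this split includes the second untreated Atf4+/+ array, which stood against its label and was the highest for these genes. Dhcr7, the last enzyme of the pathway, was at -1.19 ± 0.30, Mvd, which makes isopentenyl pyrophosphate, at -1.19 ± 0.31, and Nsdhl, a C4 demethylation enzyme, at -0.75 ± 0.25, -1.03 and -0.94. The sterol genes differed from the lipogenic genes in array order. Their mean log2 value was -0.08 and 0.05 in treated Atf4-/- livers, 0.05 and -0.65 in treated Atf4+/+ livers, 0.00 and 0.37 in untreated livers labelled Atf4-/-, and 0.32 and 1.61 in those labelled Atf4+/+. The second untreated Atf4+/+ array, which had little Atf4, stood far above the others here, and for the lipogenic genes 2 arrays exceeded it. Without it the sterol median was -0.41, with 15 of 19 below 0, and without both doubted untreated arrays -0.32; the lipogenic median without that array was -0.81.

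Of the 8 listed genes that fasting raises, 7 were measured by 11 probe sets, 3 above and 8 below 0 (median -0.15, and 0.01 without the first untreated Atf4+/+ array). By label, 5 were below 0 in Atf4-/- livers and 7 in Atf4+/+ livers. Igfbp1 (103896_f_at), a liver-secreted binding protein of insulin-like growth factors that insulin represses, rose: it had 1.57 and 2.12 in treated Atf4-/- livers, 1.83 and 1.89 in treated Atf4+/+ livers, 0.30 and 0.39 in untreated livers labelled Atf4-/-, and 0.33 and 0.43 in those labelled Atf4+/+. The difference was 2.08 ± 0.18 with an adjusted p of 0.0392 in limma; it was 1.45 to 2.33 in the 16 alternatives and passed the test in 4 of them (adjusted p = 0.0240 to 0.413), in none of those that left out an array. Its other probe set, 103897_r_at, was at -0.26 ± 0.52. Pck1, of gluconeogenesis, was at -0.15 ± 0.18, and the 4 probe sets of Angptl4, an inhibitor of lipoprotein lipase, lay between -0.54 and 0.52.

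**Figure D4:**
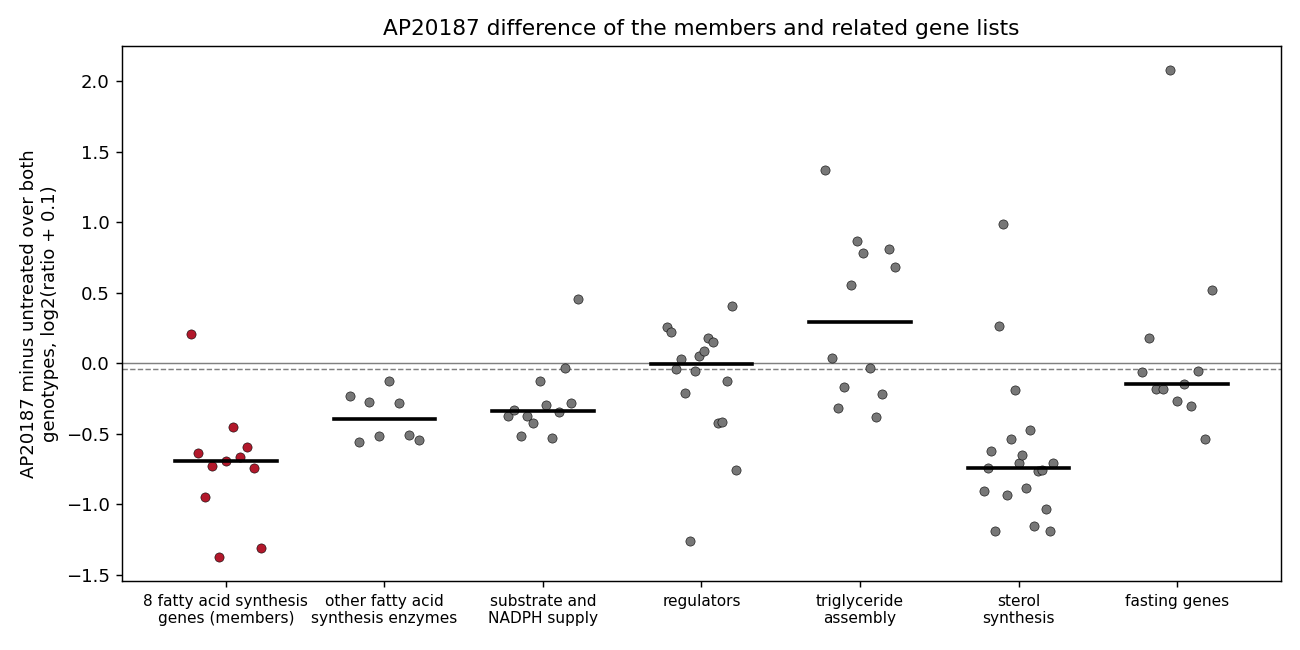
AP20187 minus untreated over both genotypes, on the log2(ratio + 0.1) scale, for the 11 probe sets of the 8 genes (red) and for 6 lists of related genes (grey). Each point is 1 probe set, bars are medians, and the dashed line is the median of all probe sets at -0.04. The lipogenic and sterol lists have medians of -0.70 and -0.74, and triglyceride assembly 0.30.

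Circadian genes were listed because lipogenesis follows the feeding day and the time of collection is not given. All 12 were measured by 15 probe sets, 6 below and 9 above 0, with a median of 0.26 (0.02 without the second treated Atf4-/- array and 0.11 without the second treated Atf4+/+ array), and none passed the adjusted test; 3 were higher and 1 lower at an unadjusted p under 0.05, against 6.16% and 5.15% of all probe sets. By label, 8 of 15 were above 0 in Atf4-/- livers and 11 of 15 in Atf4+/+ livers. Nfil3 had treated ratios of 1.29 to 1.54 with 102955_at, against 0.33 to 0.71 in untreated livers (1.37 ± 0.28, adjusted p = 0.221), and was at 0.74 ± 0.15 with 101805_f_at. Tef was at -0.69 ± 0.19, and the 3 probe sets of Cry1 lay between -1.18 and 1.53. The highest of these, 161225_r_at, had untreated ratios of 0.02 to 0.09, below the 0.1 added before taking log2. The lowest, 94421_r_at, had 0.07 and 0.03 in treated Atf4-/- livers. The part of feeding state and collection time in the lower lipogenic values was not tested.

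Adipocytes also use this pathway, so their markers were read as a check of the tissue. Of 8 listed, 6 were measured by 7 probe sets, 4 below and 3 above 0, with a median of -0.17. Their mean log2 value per array was -0.25 to 0.38 in treated livers, against -0.30 to 0.41 in untreated livers. Hepatocyte markers, 8 of 10 measured, averaged -0.18 to 0.27 in treated livers, against -0.02 to 0.29 in untreated livers. The other 7 marker lists (Kupffer, stellate, endothelial, biliary, lymphocyte, erythroid and exocrine pancreas) had medians of -0.37 to 0.05, with no probe set past the adjusted test. No marker probe set was at 0 in the table, and a ratio to the probe set's own median cannot show that a gene is absent, so the labelled tissue could not be checked by level; the part of cell makeup in the lower lipogenic values was not tested.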

How the data were processed

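Total RNA of liver was labelled as biotin cRNA and hybridised to 8 arrays, per the labels' protocols. The authors deposited a table of linear ratios in steps of 0.01, most of them to the probe set's own median over the 8 arrays: 10714 of 12488 rows (85.8%) had a median of at least 0.99. The sources used here do not give how signals were summarised and scaled, and signal over background is unknown. The column medians were 0.95 to 0.99, so the table was not scaled again. Without 66 controls, 12422 probe sets remained for testing; 10833 named 1 gene in the platform annotation, 396 several and 1193 none, and 10817 were matched to RefSeq by gene ID. The small number of arrays limits the precision given here.

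Groups come from the source names and, for 1 array, the description. For the first untreated Atf4-/- array these 2 labels disagree on the genotype, and the source name decided. Log2(ratio + 0.1) was fitted with limma 3.58.1 (lmFit, eBayes; R 4.3.3; 4 residual and 2.37 prior degrees of freedom) on 4 group means in 6 comparisons. The fit was tested on simulated data. Python 3.11.15, pandas 2.3.3 and matplotlib 3.10.9 made the tables and figures.

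The 8 genes, the lists and the tests were chosen with earlier results of these data known. Named genes are all 11 probe sets, Atf4, Eif2ak3, the 3 genes of each list of related genes with the smallest p over both genotypes, with all their probe sets, and the 5 genes most correlated with the average of the 8 genes. The alternatives were other pseudocounts, quantile normalization, a filter on the row median, robust moderation, array weights, the compared groups alone, the genotype of the description, and leaving out arrays.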

Additional observations from a re-analysis of the deposited data

How the results depend on the processing

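With 8 arrays, 2 per group, and 2 untreated arrays against their labels, the precision is limited by the number of arrays. None of the 11 lipogenic probe sets passed the adjusted test under any alternative run in the 6 comparisons. Over both genotypes 10 or 11 of the 11 stayed below 0 in each of 16 alternatives, with medians of -0.99 to -0.39, and -0.54 without the pair of doubted arrays (the second untreated array of each genotype); fitting the compared groups alone gave no separate value there or for the difference of the effects, which use all groups. No paired analysis was possible because the replicate numbers were given in accession order and pair no samples. Signal over background is unknown.

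Probe sets of the whole table past the test over both genotypes, 5 as reported, were 3 with a pseudocount of 0.01, 8 with 0.5, 12 with quantile normalization, 10 with the row median filter, 3 with array weights, 0 without the pair of doubted arrays and 0 to 2 without 1 array. In Atf4+/+ livers, 1 as reported, they were 2 with quantile normalization, 8 with the row median filter, 0 with the compared groups alone, 0 without the doubted arrays, 17 with the genotype of the description and 0 without each array in turn. For the difference of the effects, 0 as reported, there were 2 with the row median filter.

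The median of the 11 in Atf4-/- livers was -0.044 without the doubted arrays and -1.10 to -0.044 without 1 array; in Atf4+/+ livers it was -1.31 to -0.053 without 1 array. In untreated livers the genotype difference had a median of -1.02 without the doubted arrays, 0.74 with the genotype of the description and -0.92 to 0.41 without 1 array. The difference of the effects had a median of 0.80 without the doubted arrays, -0.85 with the genotype of the description and -0.60 to 0.70 without 1 array.

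Without the doubted arrays, values in Atf4-/- livers changed sign for Scd1 (0.41, 0.36 and 0.076 for its 3 probe sets), Me1 (0.52) and Elovl6 94418_at (0.35). Without 1 array they were -0.99 to 0.41, -1.49 to 0.36 and -1.12 to 0.091 for Scd1, -0.56 to 0.52 for Me1 and -1.94 to 0.35 for Elovl6 94418_at. In Atf4+/+ livers, without 1 array, Scd1 94056_at was at -1.32 to 0.090, Scd1 94057_g_at at -1.97 to 0.44, Elovl6 103665_at at -1.37 to 0.15 and Elovl6 94418_at at -1.65 to 0.26. Over both genotypes Me1 was at -0.066 to 0.48 without 1 array.

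For the genotype difference with AP20187, Scd1 94056_at was at -0.0099 with a pseudocount of 0.5 and -0.077 with quantile normalization. Without 1 array the ranges were -0.79 to 0.49 for Fasn, -0.67 to 0.74, -1.35 to 1.06 and -0.37 to 0.84 for Scd1, -0.39 to 0.089 for Acly, -1.35 to 0.16 and -1.38 to 0.54 for Elovl6, -0.48 to 0.72 for Srebf1 and -0.57 to 0.13 for Gpam.

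Of the list genes over both genotypes, Lpin2 96806_at was at 0.12, Gpd1 92592_at at 0.081, Igfbp1 103897_r_at at 0.43 and Cry1 94420_f_at at -0.37 without the doubted arrays, and Gpd1 92592_at was at 0.078 with the genotype of the description. Without 1 array Lpin2 96806_at was at -0.52 to 0.088, Gpd1 92592_at at -0.20 to 0.13, Igfbp1 103897_r_at at -0.81 to 0.28, Cry1 94420_f_at at -0.29 to 0.53, and Angptl4 161518_r_at and 102114_f_at at -0.63 to 0.030 and -0.018 to 0.37. The cause of these shifts was not tested.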
